A study of Mus musculus with 4 samples.

Results

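Messenger RNA of the genes that make, sense, move and remove cholesterol was followed in whole brain of aged mice. The set holds 29 genes chosen by name: 18 for synthesis, 4 for the SREBP sensor and sterol carriage, and 7 for efflux, esterification and turnover. Array probes were assigned to them through RefSeq accessions, which gave 45 probes for 28 of the 29 genes, among 16535 named genes on the arrays. Idi1, an isomerase of the early pathway, had no matched probe and has no value. Of the 28 genes, 13 had more than 1 probe. All 45 probes were well above background in every RNA, so no member was lost to a filter on dim spots.

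The brain makes nearly all of its own cholesterol, because lipoproteins of the blood hardly cross the blood-brain barrier. Acetyl-CoA is built up to mevalonate, to isoprenoid units and to squalene, and squalene is then closed into a ring and trimmed to cholesterol. When sterols are scarce, SCAP carries the transcription factor SREBP2 to the Golgi for activation, and INSIG1 holds it back when sterols are plentiful. Liver X receptors answer to oxysterols and switch on the exporters ABCA1 and ABCG1, while neurons convert surplus cholesterol to an oxysterol with CYP46A1. Oligodendrocytes need much cholesterol for myelin, and astrocytes supply neurons with it.

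Brain RNA of 3 groups of mice was compared on 4 Agilent arrays that read a Cy3 and a Cy5 channel, all on 1 slide. SAMP8, a senescence-accelerated inbred strain, was given either a low-safflower oil control diet (LSO) or a diet with whale meat extract (WME). SAMR1, the senescence-resistant strain used beside it, was given LSO. The labels give both strains the same AKR/J-derived background with suspected crossing to an unknown line, so the strain comparison covers every genetic difference between them. Diets ran for 26 weeks from 24 weeks of age. The mice went through behavioural tests at 49 weeks, and RNA is from the 50-week-old brain. The diet pair set SAMP8 WME against SAMP8 LSO and the strain pair set SAMP8 LSO against SAMR1 LSO, each on 2 arrays with exchanged dyes. The 2 arrays of a pair count as 1 replicate, the labels do not say how many mice stand behind an RNA, and therefore no p-values are given. Values below are log2 ratios turned so that a positive value means more in WME, or more in SAMP8. Their SD is over the 2 dye orientations and measures technical spread only.

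Median spot signals on the arrays ran from 275 to 321 in Cy3 and from 306 to 357 in Cy5, over local backgrounds of 65 to 75.5, and no probe spot was saturated. The technical SD of a mean ratio, from the part of both pairs in which RNA differences and probe dye bias cancel, was 0.049 over 26390 genes and 0.056 over the members. Neuronal, astrocyte, oligodendrocyte, microglial and endothelial markers were all well above background in all RNAs. A member was counted past a fold when both arrays exceeded it in the same direction.

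The strain pair asked how SAMP8 brain differs from SAMR1 brain on the same diet. Between the strains, 1 member stood more than 1.5-fold apart on both arrays, Hsd17b7, which reduces a sterol ketone late in the pathway and was higher in SAMP8. Past 1.2-fold there was 1 further member, Dhcr7, the enzyme of the last reduction to cholesterol, which was lower in SAMP8. The other 26 members were not past 1.2-fold on both arrays. Over all 26937 measured genes and unnamed transcripts, 1.46% were past 1.5-fold (0.969% higher and 0.494% lower). Past 1.2-fold were 4.53% (2.81% higher and 1.72% lower), and counts of 1 and 2 among 28 members are too small to set apart from those shares. The members had a median of 0.057, against −0.0066 over all genes measured, and 14 of 28 were above 0 on both arrays, against 23.9% of all genes measured. On both arrays 3 members were below 0, against 26.6%. By their means 21 of 28 were above 0, against 12600 of all 26937 measured. The members' count depended on the normalization, as given with the comparison of settings.

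**Figure D1:**
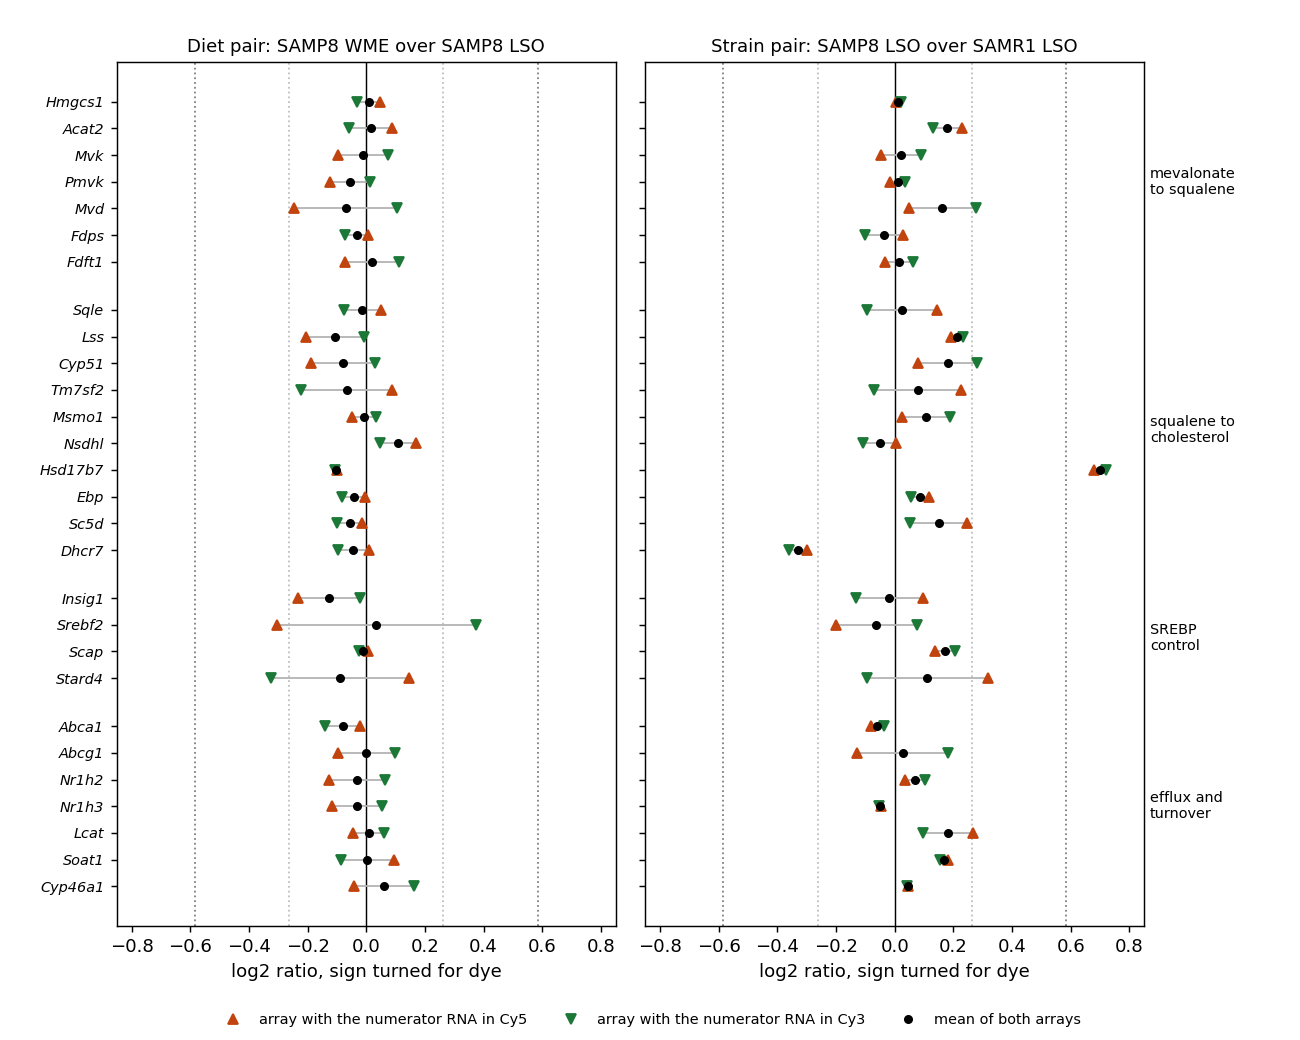
Log2 ratios of the 28 members, brightest probe of each, in the diet pair (left) and strain pair (right); triangles are the single arrays, black dots their mean, and dotted lines mark 1.2-fold and 1.5-fold. Both triangles of Hsd17b7 lie beyond 1.5-fold and both of Dhcr7 beyond 1.2-fold in the strain pair, while in the diet pair no member has both triangles past a dotted line on the same side.

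Hsd17b7 had 2 probes. On the brighter one the spot signals minus background were 4193 and 3833 in SAMP8 LSO against 2448 and 2784 in SAMR1 LSO. The SAMP8 signals were above the SAMR1 signals whichever dye carried the RNA. The log2 ratios of the 2 arrays were 0.68 and 0.72, a mean of 0.70 ± 0.028 (SD, 2 arrays), or 1.62-fold higher in SAMP8. The dimmer probe gave 1202 and 1132 in SAMP8 against 672 and 786 in SAMR1. Its ratios were 0.70 and 0.69, again 1.62-fold. In the diet pair the brighter probe read −0.099 and −0.11, a mean of −0.10 ± 0.0041 or 1.07-fold lower with WME, and the dimmer −0.024 ± 0.083. That diet sign did not hold without loess, where the brighter probe was at 0.074. The strain ratio was between 0.64 and 0.71 with loess replaced by median centring, with other background settings, with processed signals and with the probes combined by their median.

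Dhcr7 differed in the other direction. Its brighter probe had signals of 6366 and 5486 in SAMP8 LSO against 7326 and 8823 in SAMR1 LSO, with no overlap between the strains. The ratios were −0.30 and −0.36, a mean of −0.33 ± 0.042, or 1.26-fold lower in SAMP8. The dimmer probe had ratios of −0.15 and −0.25, a mean of −0.20 ± 0.071, and did not reach 1.2-fold on both arrays. The count past 1.2-fold was therefore lost when the probes were combined by their median (−0.22 and −0.30). It was also lost with processed signals, at −0.24 and −0.42. The strain sign was negative on both probes, with loess and without it. In the diet pair the probes were at −0.044 and 0.042.

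**Figure D2:**
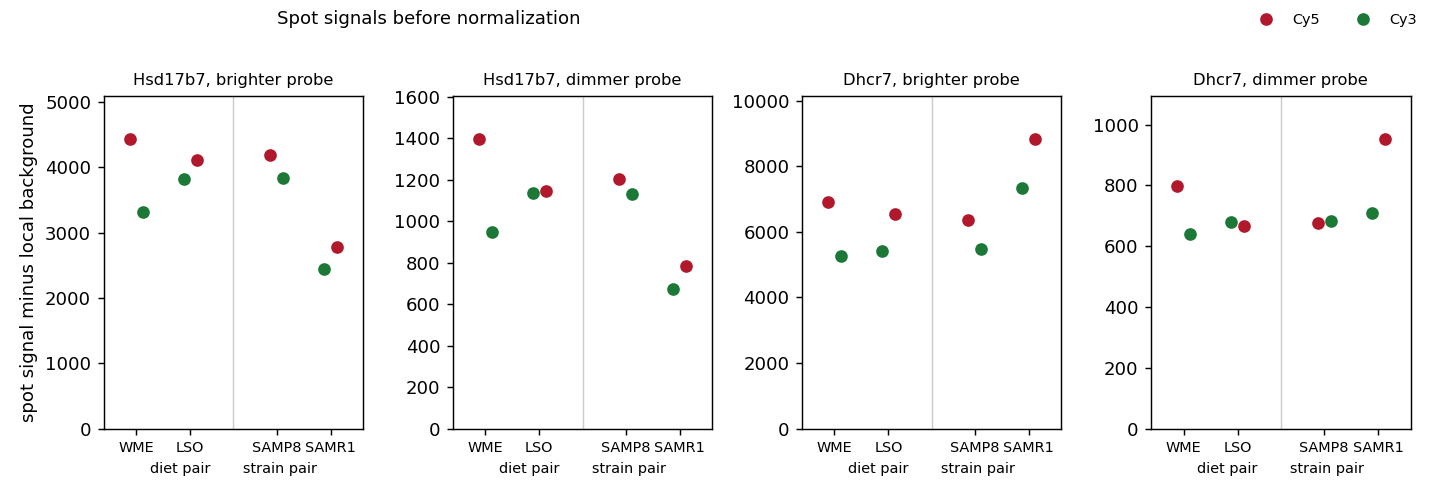
Spot signals minus local background, before normalization, for both probes of Hsd17b7 and Dhcr7 in each RNA; red points are Cy5 and green points Cy3, each vertical axis starts at 0, and the vertical line parts the diet pair from the strain pair. Both Hsd17b7 probes are lower in SAMR1 than in SAMP8 in either dye, from 2448 to 2784 against 3833 to 4193 on the brighter one.

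The promoters of the genes that differed are printed beside that of Hmgcs1, a classical SREBP target whose ratios were near 0 in both pairs on its brighter probe, so that their control letters can be compared. Each is the run of 250 bases before the annotated start, 5′ to 3′ on the strand of the gene, from RefSeq's windows on GRCm38.p6. Capitals mark, on either strand, the CCAAT box (CCAAT), the GC box bound by SP1 (GGGCGG), the E box (CACGTG, the same on both strands) and the sterol regulatory element (TCACNCCAC). Hsd17b7 lies on the minus strand at chr1:169969206-169969455, Dhcr7 on the plus strand at chr7:143822917-143823166, and Hmgcs1 on the plus strand at chr13:119690101-119690350. The Dhcr7 window is the first of 3 in the table, and the gene counts below take a match in any window of a gene.
Hsd17b7: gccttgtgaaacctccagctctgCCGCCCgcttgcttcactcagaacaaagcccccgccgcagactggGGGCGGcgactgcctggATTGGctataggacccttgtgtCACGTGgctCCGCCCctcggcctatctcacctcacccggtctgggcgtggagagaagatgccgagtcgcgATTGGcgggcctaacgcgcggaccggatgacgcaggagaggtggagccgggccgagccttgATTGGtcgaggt
Dhcr7: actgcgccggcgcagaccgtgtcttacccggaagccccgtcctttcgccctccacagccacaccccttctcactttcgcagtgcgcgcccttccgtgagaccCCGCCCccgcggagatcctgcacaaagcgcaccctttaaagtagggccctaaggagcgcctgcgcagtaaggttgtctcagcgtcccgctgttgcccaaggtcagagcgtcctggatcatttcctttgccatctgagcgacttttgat
Hmgcs1: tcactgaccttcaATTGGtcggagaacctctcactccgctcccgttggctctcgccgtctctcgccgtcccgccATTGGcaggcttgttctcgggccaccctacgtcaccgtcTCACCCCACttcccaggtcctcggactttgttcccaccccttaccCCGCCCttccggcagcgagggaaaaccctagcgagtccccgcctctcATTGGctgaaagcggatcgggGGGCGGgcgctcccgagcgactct

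The marked letters do not overlap one another in these 3 windows. The Hsd17b7 window held 3 CCAAT boxes, starting 165, 73 and 12 bases before the start, 3 GC boxes and 1 E box at 143. The Dhcr7 window held 1 GC box, at 148. Dhcr7 also counts below among the genes with a CCAAT box and an E box, through bases not printed here. The Hmgcs1 window held 3 CCAAT boxes, 2 GC boxes and the sterol regulatory element at 137. Windows of 300 bases, from 250 before to 50 after the start, were found for 24 of the 29 listed genes. A CCAAT box was in 19 of the 24 (79.2%), against 41.1% of 27025 genes, and in 14 of the 15 synthesis genes. A GC box was in 20 (83.3%, against 38.2%) and an E box in 6 (25%, against 8.09%). The sterol regulatory element was in 1 (4.17%, against 1.44%) and the direct repeat known as the liver X receptor element in 0, against 0.0148%. These are matches of letters in a window and not measured sites. The 27025 are every gene with a window and were not matched to the members in brain expression, and the reason for the gaps was not tested. Of the 3 genes printed, Hsd17b7 was higher and Dhcr7 lower in SAMP8, and Hmgcs1 stood at 0.012 ± 0.012.

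In the first arm, from acetyl-CoA to squalene, 7 genes were measured and none was past 1.2-fold between the strains. The highest was Acat2, which makes acetoacetyl-CoA, at 0.23 and 0.13 on its arrays, a mean of 0.18 ± 0.070. Mvd, which decarboxylates the mevalonate pyrophosphate, had 0.047 and 0.28, a mean of 0.16 ± 0.16, so that 1 array carried most of it. Hmgcs1, the synthase before the rate-limiting reductase, read 0.0034 and 0.020 on its brighter probe and had a mean of 0.16 ± 0.15 on the dimmer. The kinases Mvk (0.021 ± 0.096) and Pmvk (0.010 ± 0.036), farnesyl pyrophosphate synthase Fdps (−0.037 ± 0.091) and squalene synthase Fdft1 (0.015 ± 0.067) lay closer to 0 than their own spread. The dimmer probes of Mvk, Pmvk and Fdft1 were at 0.073 ± 0.066, −0.012 ± 0.17 and 0.030 ± 0.054.

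In the second arm, from squalene to cholesterol, 6 of 10 genes were above 0 on both arrays (23.9% of all genes measured). Only Dhcr7 was below it on both (26.6%). Behind Hsd17b7 came Lss, which closes squalene epoxide into lanosterol, at 0.19 and 0.23, a mean of 0.21 ± 0.027. Its dimmer probe was at 0.029 ± 0.038, so that the size rested on 1 probe. Cyp51, which removes a methyl group from lanosterol, had brighter to dimmer probes at 0.18 ± 0.14, 0.16 ± 0.079 and 0.068 ± 0.18, all in the same direction. Sc5d, a desaturase, was at 0.25 and 0.053, and Msmo1, a methyl oxidase, at 0.024 and 0.19. On each of these, 1 array carried most of the ratio. The sterol isomerase gene Ebp was at 0.086 ± 0.045 and the reductase gene Tm7sf2 at 0.078 ± 0.21. Sqle, which forms the epoxide and is a rate-controlling step, was at 0.026 ± 0.17. Nsdhl, which acts just before HSD17B7, was at −0.051 ± 0.080 with its other probes at −0.015 and 0.0017. All 3 probes were within 0.1 of 0.

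The genes of SREBP control showed no common direction between the strains. Scap was at 0.14 and 0.20, a mean of 0.17 ± 0.049. Srebf2, which encodes SREBP2, was at −0.063 ± 0.20 on its brighter probe and −0.050 ± 0.049 on the dimmer. Insig1, itself a target of SREBP2, was at −0.019 ± 0.16 and 0.058 ± 0.075. Stard4, a cytosolic sterol carrier, read 0.32 on 1 array and −0.096 on the other, and its dimmer probes were at −0.012 and 0.031. Its sign followed the dye, with the Cy5 channel higher in both pairs on the brightest probe.

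Among the genes of removal, 4 of 7 were above 0 on both strain arrays (23.9% of all genes measured) and 2 below (26.6%). Lcat, which esterifies cholesterol on lipoproteins, was at 0.27 and 0.097, a mean of 0.18 ± 0.12. Soat1, which esterifies it inside cells, was at 0.18 and 0.15, a mean of 0.17 ± 0.020, with its dimmer probes at 0.024 ± 0.15 and 0.060 ± 0.33. The exporters lay within 0.1 of 0, Abca1 at −0.059 ± 0.030 and Abcg1 at 0.027 ± 0.22. So did the liver X receptors, Nr1h2 at 0.070 ± 0.050 and Nr1h3 at −0.051 ± 0.0033. Cyp46a1, the neuronal exit enzyme, was at 0.044 ± 0.0012. Compared with the technical SD, 12 of 28 members had a mean more than 0.098, or 2 technical SDs, from 0 in the strain pair, against 30.7% of all genes measured. With loess, 11 of those 12 were higher in SAMP8 (14.8% of all genes measured) and Dhcr7 was lower (16.0%). This cut uses the SD over all genes, 0.049, and the members' own was larger, at 0.056. Msmo1 at 0.106 and Stard4 at 0.112 were only just past it, and the arrays of Stard4 had opposite signs. Without loess Msmo1 (0.012), Stard4 (0.063) and Scap (0.082) fell within that cut. Fdps (−0.102), Nsdhl (−0.099) and Abca1 (−0.111) then passed it below 0.

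The diet pair asked what WME did in SAMP8 brain, and the members' ratios were small. No member was past 1.5-fold or 1.2-fold on both arrays, where 0.0863% and 0.281% of 26661 measured genes were. The members ran from −0.13 for Insig1 to 0.11 for Nsdhl, with a median of −0.031 against 0.0038 over all genes measured. The signs of the arrays were opposite for 21 of 28 members, against 61.8% of all genes measured. Within 0.1 of 0 lay 24 of 28 members, near the 87.98% of all genes measured. Beyond 2 technical SDs were 4 (12.7% of all genes measured), with Nsdhl higher (6.21%) and Insig1, Lss and Hsd17b7 lower (6.52%). The SD over all genes and the ratios with loess were used here too. Nsdhl, Lss and Hsd17b7 were only just past the cut, at 0.109, −0.106 and −0.102.

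Nsdhl, a sterol dehydrogenase, gave like means on all of its probes in the diet pair. The 3 probes had means of 0.11 ± 0.088, 0.11 ± 0.0077 and 0.12 ± 0.20, or 1.08-fold to 1.09-fold higher with WME. On the brightest probe both arrays were above 0, at 0.17 and 0.047, and on the dimmest they were at −0.021 and 0.26. Insig1 was at −0.23 and −0.023 on its brighter probe and at −0.22 and 0.025 on the dimmer. Both probes were thus low on the array with WME in Cy5 and near 0 on the other. Lss was at −0.11 ± 0.14 on its brighter probe and 0.0041 ± 0.056 on the dimmer. Cyp51 spread from −0.17 to 0.045 over its 3 probes. Of the 13 genes with several probes, 8 had the same sign on all of them in the diet pair and 9 in the strain pair.

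By role the diet ratios were as follows. In the arm up to squalene all 7 genes had opposite signs on the 2 arrays, with means from −0.070 for Mvd to 0.019 for Fdft1. The dimmer probe of Hmgcs1 was at −0.093 ± 0.23, that of Mvk at −0.051 ± 0.23, that of Pmvk at −0.038 ± 0.17 and that of Fdft1 at 0.046 ± 0.0053. After squalene, 4 of 10 were below 0 on both arrays (17.6% of all genes measured) and Nsdhl above it on both (20.6%), with a median of −0.050. Ebp (−0.043 ± 0.057) and Sc5d (−0.056 ± 0.061) were among those below, while Sqle (−0.013 ± 0.090), Tm7sf2 (−0.067 ± 0.22) and Msmo1 (−0.0074 ± 0.060) had arrays of opposite sign. Scap, the SREBP escort, was at −0.0095 ± 0.024. Srebf2 had the widest pair of values in the set, −0.31 and 0.37, which cancel in its mean of 0.034, and its dimmer probe was at 0.0040 ± 0.083. Stard4 was at 0.15 and −0.32, with its dimmer probes at −0.029 and −0.069. Abca1 was at −0.021 and −0.14, a mean of −0.080 ± 0.084, the 1 removal gene below 0 on both arrays. Abcg1 (0.00038), Lcat (0.0083), Soat1 (0.0037), Nr1h2 (−0.030), Nr1h3 (−0.031) and Cyp46a1 (0.061 ± 0.15) had means within their spread. The dimmer probes of Soat1 were at 0.046 ± 0.019 and −0.018 ± 0.16.

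Whether signs hold without the intensity-dependent loess differed between the pairs. In the diet pair 17 of 28 members changed from below to above 0 when arrays were only centred on their median, and 26 of 28 were then above 0, with a median of 0.14. The 2 that stayed below were Lss and Insig1. On the brightest probe of each gene, all 28 members were above the median intensity of measured probes. Taking the brightest probe favours this, and dimmer probes, such as those of Fdft1, Srebf2 and Stard4, were not bright. Without loess, all genes together had a median of 0.066, and the median ran with brightness from −0.15 in the dimmest of 20 classes to 0.22 in the brightest. Set against probes of their own class, 21 members were below and 7 above, with a median difference of −0.033. Comparison within classes takes out the same brightness trend as the loess, in both pairs. It is therefore not a check made without intensity correction. In the strain pair 7 members changed sign, Hmgcs1, Mvk, Pmvk, Fdft1, Sqle, Abcg1 and Cyp46a1, all of which were under 0.05 with loess. By their means 14 members were then above 0 and 14 below, against 21 and 7 with loess, and the median was 0.00096. All genes measured had a median of −0.026 without loess, and 16 members were above it, against 21 with loess. Here the class medians ran the other way, from 0.036 in the dimmest to −0.11 in the brightest, and against probes of their own class 21 members were above and 7 below, with a median difference of 0.064. Hsd17b7 kept 0.64 and Dhcr7 −0.40, and no member was newly past 1.2-fold in either pair.

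**Figure D3:**
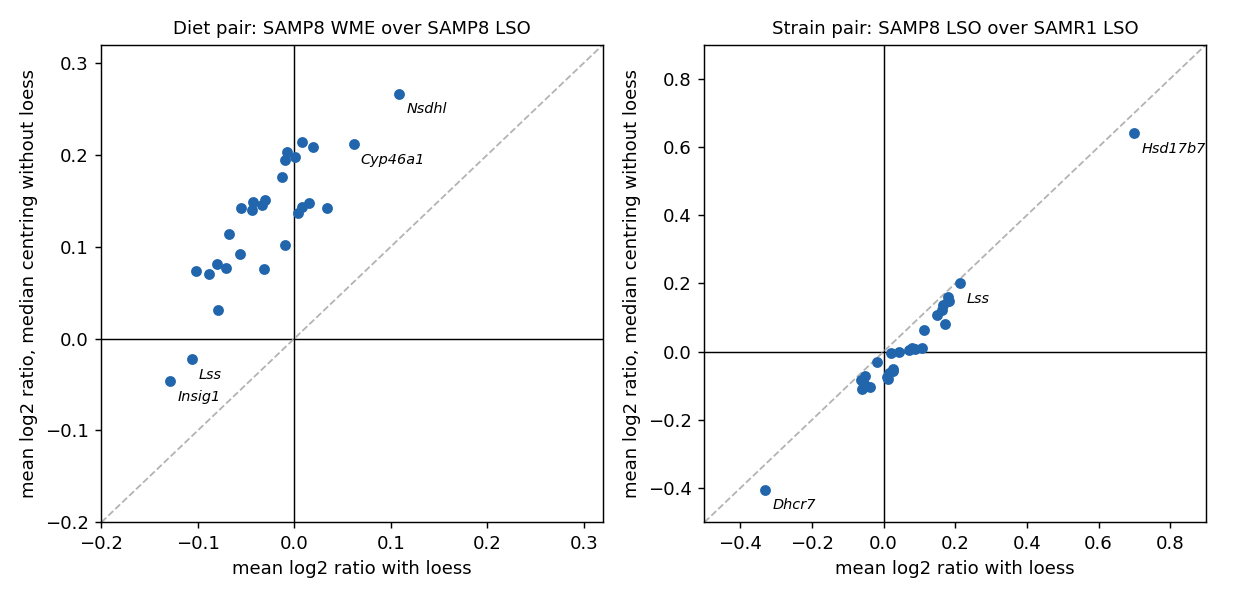
Mean log2 ratio of each member with loess (horizontal axis) against the same with median centring alone (vertical axis), for the diet pair (left) and the strain pair (right); the dashed line marks equal values. In the diet pair the points shift upward together, 26 of 28 lying above 0, and in the strain pair they shift slightly downward while Hsd17b7 and Dhcr7 stay at the ends.

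Other genes of the pathway were taken from a list of 28, of which 27 were measured in the strain pair and 26 in the diet pair, and their values are given with loess only. Between the strains 1 was past 1.5-fold, Ggps1, which makes geranylgeranyl pyrophosphate on a branch of the isoprenoid arm. It was lower in SAMP8, at −0.63 and −0.88, a mean of −0.75 ± 0.18 or 1.69-fold lower, and its other probe was at −0.62. Past 1.2-fold there was also Ch25h, which makes an oxysterol, at 0.28 and 0.54. Ch25h, like the astrocyte and endothelial genes named below, was named after its value was seen. The list had a median of 0.024. With diet none was past 1.5-fold. Abca7, a lipid transporter, was at −0.34 and −0.043, a mean of −0.19 ± 0.21. The list's diet median was −0.010.

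Markers of other cells and tissues differed in both pairs, and their part in the values above was not tested. In bulk RNA, fewer cells of a type and less RNA per cell cannot be told apart. Kidney markers were past 1.5-fold higher with WME for 6 of 8 genes, among them Kap, the kidney androgen-regulated protein, at 4.44 ± 0.92. Their summed signal was 5252 to 6516 in WME and 384 to 550.5 in LSO. In the strain pair 3 of 8 were past 1.5-fold lower in SAMP8, with summed signals of 382.5 to 503 against 1472 to 1992 in SAMR1. Acsm2 was the kidney marker not above background in SAMP8 LSO there. Oligodendrocyte markers, of which 0 of 8 were past 1.2-fold in either pair, had medians of −0.031 with diet and 0.043 between strains. Their summed signals overlapped, at 224733 to 407219 in SAMP8 and 256029 to 450211 in SAMR1. Astrocyte markers had medians of −0.10 and 0.067, and 2 of 6, Gfap and Aqp4, were past 1.2-fold higher in SAMP8 (2.81% of all genes measured). On both strain arrays 3 of the 6 were above 0 (23.9% of all genes measured) and 2, Gja1 and Aldh1l1, were below (26.6%). Endothelial markers had medians of −0.10 and 0.30, with Flt1 and Pecam1 past 1.2-fold higher in SAMP8. On both strain arrays 5 of 6 were above 0 (23.9% of all genes measured), and Esam was at −0.077 ± 0.26. The summed endothelial signals were 18739 to 19546 in SAMP8 against 15150 to 17167 in SAMR1. Neuronal medians were −0.020 and −0.0058, microglial 0.095 and −0.053, and liver 0.090 (4 of 6 measured) and −0.051 (3 of 6), each with 0 genes past 1.2-fold.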

How the data were processed

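Total RNA from whole brain was labelled with Cy3 and Cy5 and read on 4 Agilent arrays. The labels call the arrays of a pair a dye swap, and both were taken to carry 1 set of extracts. The deposited files of the scanner contain raw median spot intensity and background, processed intensity, flags and a log10 ratio (not used). The submitters' processing notes name Agilent Feature Extraction 11.0.1.1. The series table deposited by the authors holds log2 ratios of red over green processed signal (largest difference 5e-09), unturned for dye, with column medians of −0.018, 0.012, 0.0036 and 0.017.

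Intensities were corrected with normexp (offset 50) and normalized by loess within arrays in limma 3.58.1 (R 4.3.3). The offset draws ratios of dim probes towards 0. Among the members these include the dimmer probes of Fdft1, Srebf2 and Stard4, with signals minus background from 27.5 to 83.5. Control spots had weight 0 and outlier spots (105 to 123 per array) were left out. Probes were named through the RefSeq gene table of GRCm38.p6 (23374 of 41174), for names and gene order only. A gene was represented by its brightest probe and counted as measured when 1 RNA of the pair was well above background on both arrays. Folds of 1.5 and 1.2 had to be passed on both arrays. All members were named, with every probe described. Of the other lists, up to 4 genes past 1.5-fold were named, or the 2 with the largest ratio; some results on these genes are not reported here. The members and lists were chosen with earlier results of these data known. With 1 RNA per group no test was made, the arrays' number limits the precision, and all arrays lay on 1 slide. The main normalization and the fold rules were tested on simulated arrays, probe by probe. The other settings, the gene values, the technical SD, the medians and the promoter and neighbour lookups were not. Alternatives changed the normalization, background, filter, probe rule and arrays used.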

Additional observations from a re-analysis of the deposited data

How the results depend on the processing

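With median centring alone, 26 members instead of 9 were above 0 in the diet pair and the median was 0.14; in the strain pair the median was 0.00096. Processed signals gave a strain median of 0.048. Past 1.2-fold in the strain pair were 2 members, and 1 with processed signals and 1 with probes combined by their median, Dhcr7 being the one lost. Single arrays, in which dye bias is not cancelled, gave 1 to 2 members past 1.2-fold in the diet pair (Srebf2 and Stard4), 4 in the strain pair whichever array was left out, and strain medians of 0.046 to 0.059. The further strain members were Mvd and Cyp51 without the array that has SAMP8 in Cy5, and Stard4 and Lcat without the other. Over the alternatives 53 recomputed counts and medians stayed within the limits set and 11 moved. Those limits were wide, as the fall from 21 to 14 strain members above 0 without loess lay within them. The 53 are therefore no measure of robustness. Of the single ratios, 402 stayed within their SD and 46 moved. Many of the 402 could not have moved, so that count does not measure robustness. The ratio of a single array always lies within the SD of its pair. The filter on both RNAs removed no member probe, and genes with 1 probe have the same value under either probe rule. Hsd17b7 and Dhcr7 kept their strain signs, and the counts past 1.5-fold stayed at 0 and 1, under every alternative run. No paired analysis was possible because a pair of arrays is 1 replicate. Comparison with probes of like brightness was chosen after seeing the data.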

Other observations

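The genes that lie beside Hsd17b7 and Dhcr7 were looked up after those values were seen, as the 6 protein-coding genes on each side in the gene order of GRCm38.p6. Around Hsd17b7 on chromosome 1, 7 neighbours were measured in the strain pair, and 3 were past 1.2-fold higher in SAMP8, where 2.81% of all genes measured were. Ddr2, a collagen receptor and the next gene, was at 0.74 and 0.67, a mean of 0.71 ± 0.046. Nuf2, a kinetochore subunit, was at 0.76 ± 0.11, and Rgs5, a regulator of G-protein signalling in pericytes, at 0.83 ± 0.17. These 4 genes thus stood 1.62-fold to 1.78-fold higher in SAMP8. Between and beside them Rgs4 (0.17 ± 0.13), Uap1 (−0.24 ± 0.14) and Uhmk1 (0.30 ± 0.19) were not past 1.2-fold on both arrays. Ddr2, Nuf2 and Rgs5 had 1 probe each. In the diet pair they were at 0.012, 0.038 and −0.094. Endothelial markers were also higher in SAMP8, with a median of 0.30, and their part in the Rgs5 value was not tested.

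Around Dhcr7 on chromosome 7, 9 neighbours were measured and 0 were past 1.2-fold. Nadsyn1, the gene next to it, was at 0.0040 ± 0.023, and the others ran from −0.084 for Tnfrsf22 to 0.13 for Mrgpre.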
